A study of Mus musculus with 204 samples.

Results

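The metabotropic glutamate receptor genes Grm2, Grm3, Grm4, Grm5, Grm6, Grm7 and Grm8 were followed through single cells picked from the distal colon of mice. They were taken by symbol and make up 7 of the 49492 gene rows of the expression table. The 204 cells came from VGLUT2-tdTomato mice, in which a red fluorescent protein reports Slc17a6, the gene of the vesicular glutamate transporter VGLUT2. Muscle layers with the attached myenteric plexus, the nerve network that drives gut movement, were dissociated and kept in culture overnight. Red cells were then collected by hand, and the polyadenylated RNA of each was sequenced as 1 sample. All cells share this reporter, tissue and culture step, and the labels give no treatment, no age and no animal.

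Metabotropic glutamate receptors are G protein-coupled receptors with a large extracellular glutamate-binding domain, and they work as dimers. Group I, here Grm5, couples to Gq and raises intracellular calcium through phospholipase C. Group II (Grm2 and Grm3) and group III (Grm4, Grm6, Grm7 and Grm8) couple to Gi/o, lower cyclic AMP, close presynaptic calcium channels and open potassium channels. Many of them sit on axon terminals and reduce transmitter release. The myenteric plexus holds excitatory motor neurons and interneurons that use acetylcholine, made by the enzyme that Chat encodes, and inhibitory motor neurons that use nitric oxide, made by the Nos1 product.

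The cells were spread over 3 plates of 66, 66 and 72 cells. Reads per cell ran from 453035 to 14310603, and the median of plates 1, 2 and 3 was 3445514, 4571442 and 4690978. A transcript counted as detected at 10 or more reads per 1000000 (CPM), and a cell as neuronal when at least 50% of a 13-gene pan-neuronal list was detected. The labels call every cell a neuron, but 50 cells did not meet this rule, which left 75.5% as neuronal. The smooth muscle list was carried by 35 neuronal cells (22.7%) and 31 other cells (62.0%), and the glial list by 8 neuronal cells (5.19%) and 4 other cells (8.0%). Slc17a6 was present in 89 neuronal cells and missing in 65, which together are all of them. Chat divided the same cells into 106 and 48, and Nos1 into 80 and 74. Because no label ties a cell to an animal or culture, each plate was treated as 1 sample, no test was made, and 95% exact intervals cover counting error only. The kit had no molecular identifiers, so these are reads and not molecules.

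Grm7 was the receptor most often detected. It was found in 49 neuronal cells (31.8%, interval 24.6% to 39.8%), against 1 of 50 other cells (2.0%, interval 0.0506% to 10.6%). Across all 204 cells it was detected in 50 (24.5%). Grm7 encodes a receptor with low affinity for glutamate that is placed at the release sites of axon terminals in the mouse brain. The gene (ENSMUSG00000056755) lies on the plus strand of chromosome 6, from 110645581 to 111567230 in mm10. The neuronal cells held 20993 of the 21118 Grm7 reads. The cell with most reads held 12.3% of the 21118, and the top 5 cells held 37.2%. The other cell above the threshold was cell 51 of plate 2, with 14.2 CPM and 6 of the 13 pan-neuronal genes detected.

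The remaining receptors were rare. Among neuronal cells Grm4 was detected in 9 (5.84%, interval 2.71% to 10.8%), and Grm3 in 6 (3.90%, interval 1.44% to 8.29%). Grm8 was detected in 3 (1.95%, interval 0.404% to 5.59%), and Grm2 and Grm6 in 2 each (1.30%, interval 0.158% to 4.61%). Grm5 reached the threshold in 0 neuronal cells, and a count of 0 allows up to 1.95% (3 cells), or 2.37% by the exact interval. None of these 6 genes was detected among the 50 other cells, where a count of 0 allows up to 6.0% (exact limit 7.11%). The Grm7 interval lay above those of all other receptors, whereas Grm4, Grm3, Grm8, Grm2 and Grm6 had intervals that overlapped their neighbours in the order. Set against the table as a whole, 27.2% of the 37635 genes with reads were detected in at least as many neuronal cells as Grm7, and 41.3% in at least as many as Grm4.

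Levels of different genes were compared in reads per kilobase of exon and 1000000 reads (RPKM). The mean level over neuronal cells was 5.38 RPKM for Grm7, 0.395 RPKM for Grm4 and 0.393 RPKM for Grm3. It was 0.159 RPKM for Grm2, 0.128 RPKM for Grm8 and 0.108 RPKM for Grm6. The highest cell gave 88.4% of the summed Grm2 level, 72.5% of that of Grm8 and 44.0% of that of Grm6. For Grm7 the highest cell gave 9.79% of the summed level. The 7 genes have 3049 (Grm3) to 10247 (Grm5) bases of exon, so a fixed threshold in CPM asks for a lower level per length of Grm5 than of Grm3.

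**Figure D1:**
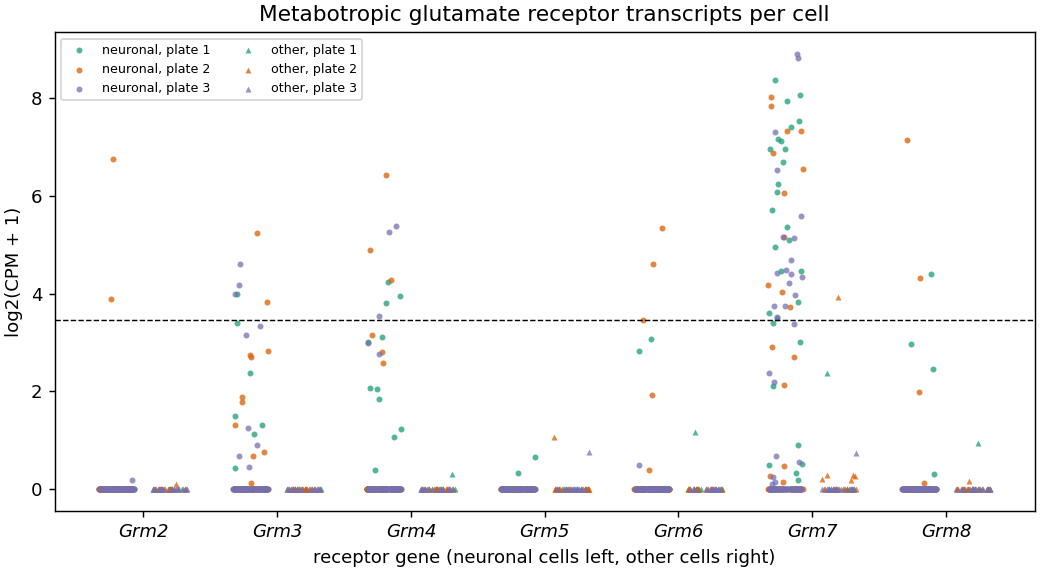
Level of each receptor in every cell, as log2(CPM + 1), coloured by plate, with neuronal cells on the left and other cells on the right of each gene. The dashed line is 10 CPM. Grm7 reached 10 CPM in 49 neuronal cells (31.8%) and 1 of 50 other cells, and no other receptor did so in more than 9 cells.

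Each plate gave Grm7 first place. On plates 1, 2 and 3 it was detected in 21 of 54, 11 of 45 and 17 of 55 neuronal cells (38.9%, 24.4% and 30.9%). Grm4 was found in 3 neuronal cells of each plate, and Grm3 in 1, 2 and 3 cells of plates 1, 2 and 3. The Grm2 and Grm6 cells were all on plate 2, and Grm8 was detected in 1 cell of plate 1 and 2 cells of plate 2. Mean Grm7 in neuronal cells was 41.2, 26.1 and 27.0 CPM on plates 1, 2 and 3, against 0.35, 0.72 and 0.04 CPM in other cells. The log2 ratios of these means, with 1 CPM added to each, were 4.96, 3.98 and 4.75. A ratio was called when its size was at least 1 with the same sign on every plate that had 5 cells of each class. By that rule 7.63% of the 37635 genes were called higher in neuronal cells and 2.24% lower. Grm7 and Grm4 were called higher, Grm4 with log2 ratios of 1.19, 2.12 and 1.51. The Grm4 means came from few cells, with 3 neuronal cells of each plate at 10 CPM. A single cell of plate 2, at 84.7 CPM, held 26.2% of the Grm4 level summed over neuronal cells. Grm3 was not called, with log2 ratios of 0.70, 1.42 and 1.25.

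At least 1 receptor was detected in 61 neuronal cells (39.6%, interval 31.8% to 47.8%), against 1 of the 50 other cells. Plates 1, 2 and 3 gave neuronal shares of 42.6%, 40.0% and 36.4%. Of the 61 cells, 51 had exactly 1 receptor and 10 had 2, and 0 had more. The pairs were Grm3 with Grm7 in 4 cells, Grm4 with Grm7 in 2, Grm7 with Grm8 in 2, Grm3 with Grm4 in 1 and Grm6 with Grm8 in 1. The 4 cells with Grm3 and Grm7 are 66.7% of the Grm3 cells and 8.16% of the Grm7 cells.

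**Figure D2:**
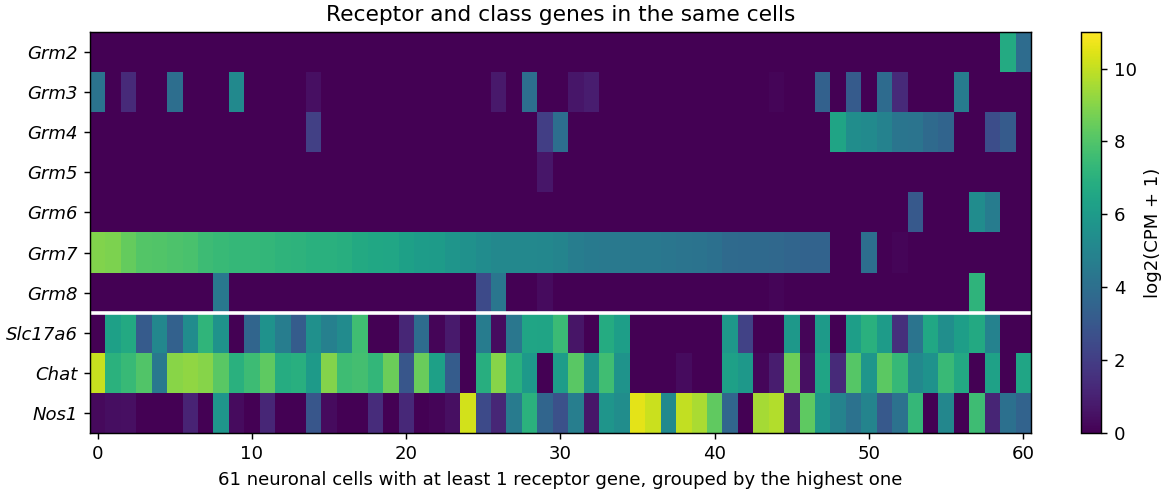
Level of the 7 receptors, as log2(CPM + 1), in the neuronal cells with at least 1 receptor detected (61 cells). Each column is a cell, and the rows under the white line are the class genes Slc17a6, Chat and Nos1. In 51 cells a single receptor passed 10 CPM, most often Grm7.

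Grm5, the group I receptor, is known from brain neurons and astrocytes, where it sits next to synapses and is held by Homer scaffolds. The gene (ENSMUSG00000049583) lies on the plus strand of chromosome 7, from 87584168 to 88134907. It had 7 reads in 2 neuronal cells and 2 reads in 2 other cells.

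Among group II, Grm2 encodes a presynaptic autoreceptor of brain glutamate neurons, and Grm3 a closely related receptor found in brain on neurons and astrocytes. Grm2 (ENSMUSG00000023192, minus strand of chromosome 9, 106643095 to 106656082) was at 106 CPM in cell 18 of plate 2 and at 13.8 CPM in cell 23 of plate 2. The first of these cells had 630846 reads in all, of which 67 were Grm2, and it also carried the smooth muscle and epithelial lists. Grm3 (ENSMUSG00000003974, minus strand of chromosome 5, 9485541 to 9725170) was at 36.6, 23.4, 17.1, 14.9, 14.9 and 13.3 CPM in its 6 cells. All 6 Grm3 cells had Chat, and 5 of them lacked Nos1. Grm3 was thus detected in 6 of 106 neuronal cells with Chat (5.66%), against 0 of 48 without Chat, which allows up to 6.25% (exact limit 7.40%). The difference was not detectable with so few cells. The 12 cells with the glial list had 0 Grm3 reads.

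Among group III, Grm4 encodes a presynaptic receptor known from cerebellar parallel fibres. Grm4 (ENSMUSG00000063239, minus strand of chromosome 17, 27422387 to 27521403) was at 84.7, 41.0, 37.1, 28.5, 18.5, 17.9, 14.5, 13.1 and 10.7 CPM in its 9 cells. The highest value came from a cell with 684822 reads, the one Grm4 cell that lacked Chat. Of the 9 cells, 8 had Chat, 7 had Slc17a6 and 6 had Nos1. Grm4 was detected in 7 of 89 neuronal cells with Slc17a6 (7.87%), against 2 of 65 without it (3.08%). With Nos1 the count was 6 of 80 (7.5%), against 3 of 74 without Nos1 (4.05%). The intervals of the groups overlapped in both comparisons.

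Grm8 encodes a presynaptic receptor with high affinity for glutamate. The gene (ENSMUSG00000024211, minus strand of chromosome 6, 27275119 to 28135178) was at 141.3, 20.1 and 19.0 CPM in its 3 cells. Grm6 is known as the glutamate receptor of retinal ON bipolar cells. The gene (ENSMUSG00000000617, plus strand of chromosome 11, 50850685 to 50866208) was at 39.7 and 23.5 CPM in its 2 cells. The higher Grm6 cell was also the highest Grm8 cell, cell 33 of plate 2. It was the shallowest cell of the series, with 453035 reads of which 18 were Grm6. The Grm6 reading of 9.97 CPM in cell 42 of plate 2 fell just short of the threshold.

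The sequences before the transcription starts of the commonly detected Grm7 and of the rarely detected Grm8 and Grm6 are shown to set the genes side by side. Each is the 250 bases upstream of a RefSeq start in GRCm38.p6, read 5′ to 3′ on the strand of the gene, and capitals mark CCAAT or GGGCGG on either strand. Grm7 is at chr6:110645348-110645597 (plus strand), Grm8 at chr6:28135147-28135396 (minus strand) and Grm6 at chr11:50850435-50850684 (plus strand).
Grm7: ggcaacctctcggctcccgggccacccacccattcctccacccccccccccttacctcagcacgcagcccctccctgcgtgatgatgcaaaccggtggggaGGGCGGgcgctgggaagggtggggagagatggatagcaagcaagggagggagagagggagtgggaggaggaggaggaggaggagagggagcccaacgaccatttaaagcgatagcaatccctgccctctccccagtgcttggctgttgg
Grm8: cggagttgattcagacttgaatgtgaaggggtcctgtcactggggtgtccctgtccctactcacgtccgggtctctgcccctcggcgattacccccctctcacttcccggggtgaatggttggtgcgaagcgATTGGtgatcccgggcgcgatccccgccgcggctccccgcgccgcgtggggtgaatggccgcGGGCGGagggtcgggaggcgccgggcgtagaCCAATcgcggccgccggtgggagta
Grm6: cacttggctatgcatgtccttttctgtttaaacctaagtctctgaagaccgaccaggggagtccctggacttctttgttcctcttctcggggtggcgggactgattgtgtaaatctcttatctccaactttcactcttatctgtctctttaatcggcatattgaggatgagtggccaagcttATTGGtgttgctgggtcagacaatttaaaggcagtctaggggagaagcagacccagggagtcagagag
The Grm8 window held 29 CpG dinucleotides and 68.4% G or C, the Grm7 window 9 and 65.2%, and the Grm6 window 4 and 47.6%, where the median of 32851 such windows was 6 CpG and 52.4%. GGGCGG occurred once in the Grm7 window and once in the Grm8 window, and 32.7% of all windows hold it. CCAAT occurred in the Grm8 and Grm6 windows, and 33.8% of all windows hold it. TATAAA was in none of the 3, and 12.4% of all windows hold it. Grm7 and Grm8 have further RefSeq starts that are not printed, and the printed windows are the richest in CpG of each gene. The other Grm8 windows held 8 CpG and 54.4% G or C, and 2 CpG and 43.6%, both without GGGCGG. The other Grm7 window held 8 CpG and 62.0%. The contrast of Grm8 with Grm7 thus depends on the start shown.

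Grm7 reached its highest levels in neuronal cells with Chat and without Nos1. Of the neuronal cells, 56 had Chat without Nos1 (Chat-only), 50 had both, 18 had neither and 30 had Nos1 without Chat (Nos1-only). In Chat-only cells Grm7 ran from 0 to 478 CPM with a median of 6.47 CPM, and it was detected in 27 of 56 cells (48.2%, interval 34.7% to 62.0%). In Nos1-only cells it ran from 0 to 46.9 CPM with a median of 3.76 CPM, and it was detected in 11 of 30 cells (36.7%, interval 19.9% to 56.1%). In cells with both enzymes it ran from 0 to 169.7 CPM with a median of 0, and it was detected in 9 of 50 (18.0%, interval 8.58% to 31.4%). In cells with neither it ran from 0 to 74.4 CPM with a median of 0, and it was detected in 2 of 18 (11.1%, interval 1.38% to 34.7%). Detection was thus lower in cells with both enzymes than in either single class, with an interval that overlapped that of the Nos1-only cells. Cells with neither enzyme were the shallowest class, with a median of 1251208 reads, against 4254671 in cells with both. The part of depth in their low share, and in their lack of Chat and Nos1, was not tested. The ranges of all 4 classes overlapped at the low end, and most of the high values were in Chat-only cells. The order of the pooled medians did not hold on each plate. Plate 2 gave medians of 0 CPM in Chat-only and 0.098 CPM in Nos1-only cells, and plate 3 gave 2.09 and 10.5 CPM. Plate 1 gave 30.1 and 7.02 CPM, the latter from 3 Nos1-only cells. The Chat-only cells held 17052 Grm7 reads and the Nos1-only cells 1854, as sums over 56 and 30 cells.

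Within plates the Chat-only mean was 65.6 CPM on plate 2 and 76.4 CPM on plate 3, against 4.31 and 11.6 CPM in Nos1-only cells of those plates. The log2 ratios were 3.65 and 2.61, and Grm7 was called higher. By that rule 5.8% of genes were called higher and 3.0% lower. Plate 1 had 3 Nos1-only cells, too few for a ratio, with a mean of 13.7 CPM, against 78.7 CPM in its Chat-only cells. Detection did not keep 1 direction. On plate 2 Grm7 was detected in 47.1% of the Chat-only class, against 21.4% of the Nos1-only class. On plate 3 the share was 37.5% in the Chat-only class, against 53.8% in the Nos1-only class. Nos1-only cells were sequenced more deeply, with a median of 6261658 reads, against 4181980 in Chat-only cells. The part of depth in these shares was not tested. On plate 3 the 13 Nos1-only cells held 1142 Grm7 reads, whereas the 17 other cells of that plate held 1. These groups had median depths of 6885187 and 2004519 reads and mean Grm7 of 11.6 and 0.04 CPM, in that order.

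**Figure D3:**
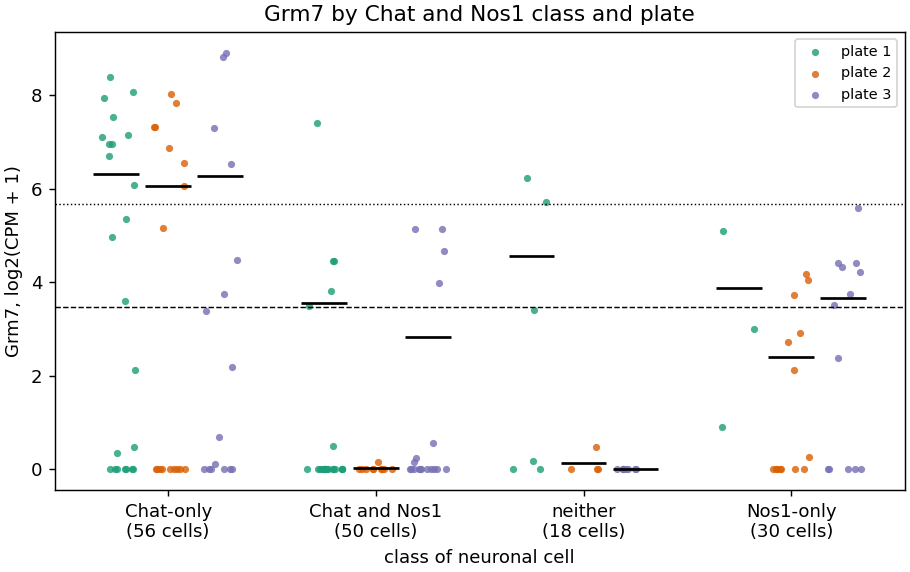
Grm7 in every neuronal cell, as log2(CPM + 1), by Chat and Nos1 detection and plate. The dashed line is 10 CPM, the dotted line 50 CPM, and black bars mark the mean CPM per plate. Grm7 passed 50 CPM in 21 of 56 cells of the Chat-only class and in 0 of 30 of the Nos1-only class.

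At a threshold of 50 CPM the classes separated further. Grm7 passed it in 24 neuronal cells (15.6%), 13, 7 and 4 of them on plates 1, 2 and 3, and in 0 of 50 other cells. Of the 24, 21 were Chat-only cells (37.5% of that class, interval 24.9% to 51.5%), 1 had both enzymes and 2 had neither. Among the 30 Nos1-only cells the count was 0, which allows up to 10.0% (exact limit 11.6%). The cell with both enzymes was at 170 CPM of Grm7 and 52.8 CPM of Nos1. The 2 cells with neither had Chat below the threshold, at 8.1 and 6.8 CPM. Counted by Nos1 alone, 1 of 80 neuronal cells with Nos1 (1.25%, interval 0.0316% to 6.77%) passed 50 CPM of Grm7, against 23 of 74 without Nos1 (31.1%, interval 20.8% to 42.9%). In the band from 10 to 50 CPM lay 25 cells, and 19 of those had Nos1.

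The mean level of Grm7 was lower in neuronal cells with Nos1 on each plate. The means were 11.1, 2.52 and 8.40 CPM on plates 1, 2 and 3 with Nos1, against 67.1, 53.1 and 50.9 CPM without it. The log2 ratios of -2.50, -3.94 and -2.47 met the rule, as did those of 1.01% of the 15180 genes tested in the lower direction and 0.698% in the higher one. Detection at 10 CPM was 25.0% of 80 cells with Nos1 (interval 16.0% to 35.9%), against 39.2% of 74 without it (interval 28.0% to 51.2%). By plate these shares were 24.0%, 12.5% and 35.5% with Nos1, against 51.7%, 38.1% and 25.0% without it, so plate 3 went the other way. The median with Nos1 was 0 CPM on each plate, against 11.1, 0 and 0 CPM without it. Upper quartiles were 7.02, 0.98 and 16.2 CPM with Nos1, against 123.7, 92.7 and 10.1 CPM without it.

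Neuronal cells with Chat had mean Grm7 of 45.5, 41.3 and 39.1 CPM on plates 1, 2 and 3, against 19.6, 3.37 and 7.21 CPM without Chat. The log2 ratios were 1.17, 3.27 and 2.29, a call shared by 2.5% of genes in the higher direction, with 0.837% lower. The call was lost when cells were scaled by their upper quartile, where the lowest plate gave 0.74. Detection was 36 of 106 cells with Chat (34.0%, interval 25.0% to 43.8%), against 13 of 48 without it (27.1%, interval 15.3% to 41.8%).

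Slc17a6 did not divide the cells in the same direction on each plate. The Grm7 means were 32.5, 38.1 and 28.1 CPM on plates 1, 2 and 3 with Slc17a6, against 79.3, 16.5 and 26.0 CPM without it. The log2 ratios were -1.26, 1.16 and 0.11, and Grm7 was not called, where 1.53% of genes were called higher and 0.922% lower. It was detected in 25 of 89 neuronal cells with Slc17a6 (28.1%, interval 19.1% to 38.6%), against 24 of 65 without it (36.9%, interval 25.3% to 49.8%). Among the neuronal cells with Chat, the counts were 24 of 83 with Slc17a6 (28.9%) and 12 of 23 without it (52.2%).

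Grm7 was the one receptor found in enough cells to rank other genes against it. The 5 genes whose levels followed it most closely, of 10374 ranked over the neuronal cells after centring within plates, were Ffar3, Ebf3, Tac1, Cadm1 and Bnc2. These points share libraries, depth and plates, so the values describe these cells. Spearman's rho was 0.63 for Ffar3, the receptor for short-chain fatty acids, with 0.81, 0.55 and 0.49 on plates 1, 2 and 3. It was 0.56 for Ebf3, a transcription factor, with 0.81, 0.65 and 0.52 by plate. For Tac1, the substance P precursor of excitatory motor neurons, it was 0.56, with 0.71, 0.51 and 0.14 by plate. It was 0.56 for the adhesion molecule Cadm1 and 0.55 for the zinc finger protein Bnc2. The 99th percentile of all ranked genes was 0.38, and Chat, Nos1 and Slc17a6 were at 0.11, -0.16 and -0.17.

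The bands of Grm7 level restate this ranking, since the genes were picked in the same cells. All 24 neuronal cells with Grm7 at 50 CPM or more had Ffar3, against 6 of 25 cells with 10 to 50 CPM and 2 of the cells below 10 CPM (1.90%). Tac1 was found in 24, 9 and 15 cells of these bands, Ebf3 in 21, 12 and 11, and Bnc2 in 20, 8 and 8. In the upper band the median level was 278 CPM for Ffar3 and 2249 CPM for Tac1. Cadm1 was detected in 24 of 24 and 24 of 25 cells of the upper and middle band, against 61 cells (58.1%) of the lowest, so its detection set the lowest band apart. The middle band thus had Grm7 in most cases without Ffar3.

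**Figure D4:**
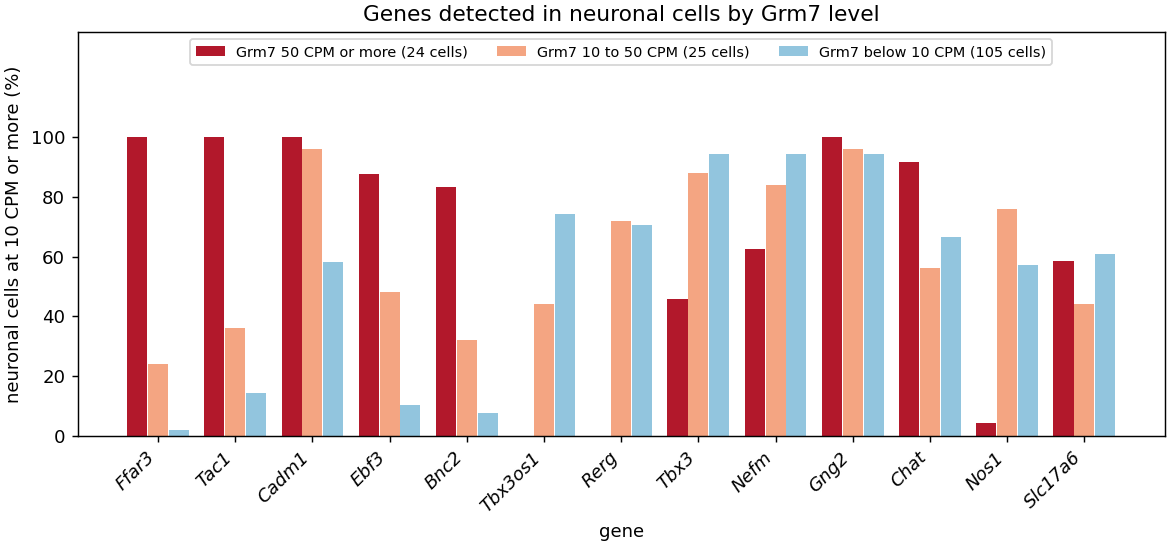
Percent of neuronal cells with each gene detected at 10 CPM, in cells with Grm7 at 50 CPM or more (24 cells), 10 to 50 CPM (25 cells) and below 10 CPM (all other neuronal cells). All genes but Chat, Nos1 and Slc17a6 were picked by their ranking against Grm7 in these cells. Ffar3 was detected in 24, 6 and 2 cells of these bands, and Tbx3os1 in 0, 11 and 78.

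The genes at the other end of the ranking were Tbx3os1, Tbx3, Rerg, Gng2 and Nefm, with rho of -0.55, -0.53, -0.42, -0.41 and -0.41. Each was closest to 0 on plate 3, where rho was -0.21, -0.29, -0.10, -0.33 and -0.19 in that order. Tbx3 encodes a transcription factor and Tbx3os1 is a neighbouring RNA on the opposite strand, so their reads may not be fully separable. Tbx3os1 was detected in 0 of 24 cells with Grm7 at 50 CPM or more, against 11 of 25 in the middle band and 78 below 10 CPM (74.3%). The median of Tbx3 was 7.48, 132.6 and 530 CPM in the upper, middle and lower band. Rerg, a Ras-like protein, was detected in 0 of 24 cells of the upper band, against 18 (72.0%) and 74 (70.5%) in the middle and lower band. Nefm, the medium neurofilament, had medians of 24.5, 523 and 1076 CPM. Gng2, a G protein gamma subunit through which Gi/o receptors act, was detected in nearly all cells, and its median was 44.9, 88.8 and 263 CPM. The medians of Tbx3, Nefm and Gng2 in the middle band lay between those of the other bands.

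The bands also differed in depth and in other cell types' markers. Median reads were 3387677 at 50 CPM or more, 6409271 in the middle band and 3457940 below 10 CPM. The smooth muscle list was carried by 2 (8.33%), 3 (12.0%) and 30 (28.6%) cells of these bands. Neuronal cells with Grm7 detected had a summed smooth muscle level of 2.66 to 2703 CPM, median 28.9, against 2.08 to 70220 CPM, median 61.5, in those without it, and 0 of the 8 smooth muscle genes were without reads in either group. The part of depth and of smooth muscle RNA in these differences was not tested. Grm7 was detected in 5 of the 35 neuronal cells with the smooth muscle list (14.3%) and in 44 of those without it (37.0%).

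The neuronal cells were also split by 4 other genes, chosen after their values were seen, so these shares are a description. Among neuronal cells with Chat, those with Tac1 had Grm7 in 29 of 37 cells (78.4%), against 7 of 69 without Tac1 (10.1%). By plate the shares were 77.8%, 80% and 77.8% with Tac1, against 14.8%, 0% and 12.0% without it. Among neuronal cells with Slc17a6, those with the serotonin receptor gene Htr3a had Grm7 in 4 of 36 cells (11.1%), against 21 of 53 without Htr3a (39.6%). Neuronal cells with the activity-induced gene Fos had Grm7 in 11 of 67 (16.4%), against 38 of 87 without Fos (43.7%). Cells with the injury-associated gene Sprr1a had it in 28 of 61 (45.9%), against 21 of 93 without Sprr1a (22.6%), though plate 2 gave 23.1% and 25.0% in that order.

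Genes for the partners of these receptors ranged from common to rare in neuronal cells. The share of all genes that reached 50% of neuronal cells was not computed, so the list counts at that share have no background. Below, 2 of 6 channel genes and 6 of 15 scaffolds and binding partners reached 50%. So did 6 of 13 desensitisation genes and 2 of 7 genes of the Grm6 cascade. Of 11 Gq pathway genes, 6 were detected in at least 50% of neuronal cells, led by the alpha subunits Gna11 (94.8%) and Gnaq (94.2%), the phospholipase Plcb4 (77.3%) and the kinase Prkca (74%). None of the 11 was called between neuronal and other cells, where 7.63% of all genes were called higher and 2.24% lower, so a count of 0 in a list this short is near the background. Of 18 Gi/o pathway genes 11 reached 50%, led by Gnb1 (100%), Gnb2 (99.4%), Gnai2 (97.4%) and Gng3 (96.1%). In this list 5 were called higher in neuronal cells (7.63% of all genes) and 0 lower (2.24% of all genes). Among the 5 were Gng3, with 96.1% against 10.0% of other cells, and Gnao1, the main brain Go subunit, with 95.5% against 30.0%. Gnaz was detected in 86.4% of neuronal and 4.0% of other cells. The median log2 ratio was 0.06 for the Gq list and 0.77 for the Gi/o list, against 0.13 for all genes. Of the 37635 genes with reads, 15180 were at 10 CPM in at least 10 neuronal cells, against 59 of the 69 partner genes. The 1 CPM added to each mean understates the ratios of low genes, so the lists and all genes are unlike in level.

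The channels that Gi/o receptors act on had a median log2 ratio of 3.40, and 4 of 6 were called higher in neuronal cells, against 7.63% of all genes, and 0 lower, against 2.24%. Cacna1a and Cacna1b, the presynaptic P/Q-type and N-type calcium channels, were detected in 79.2% and 76% of neuronal cells, against 20.0% and 6.0% of other cells. The potassium channel genes Kcnj3 and Kcnj6 were detected in 42.9% and 29.2% of neuronal cells and in 0% of other cells. Of 15 scaffolds and binding partners, 8 were called higher, against 7.63% of all genes, and 1 lower, against 2.24%, with a median of 2.44. Pick1, which binds the Grm7 tail, was detected in 79.2% of neuronal and 36.0% of other cells. Ncdn (90.9%), Shank1 (85.1%) and Dlg4 (84.4%) led the list. Elfn2, an adhesion protein that binds group III receptors across the synapse, was detected in 46.1% of neuronal and 0% of other cells, whereas the related Elfn1 was detected in 5.19% and 4.0%. Homer3 was the member called lower, with 39.6% against 82%. The shares of 7.63% and 2.24% include many low genes, so they are not shares of genes alike in level to these lists.

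Of 13 genes for desensitisation, 2 were called higher and 0 lower in neuronal cells, with a median log2 ratio of 0.70. With 7.63% of all genes called higher and 2.24% lower, these counts are near the background. Grk3, a receptor kinase, was detected in 89.6% of neuronal and 4.0% of other cells, and Grk2 (89%), Arrb2 (85.1%) and Arrb1 (76.6%) followed in neuronal cells. The cascade that Grm6 uses in retinal ON bipolar cells was detected in part. Of its 7 genes Rgs7 and Rgs11 were called higher, where 7.63% of all genes were, at 68.8% and 59.7% of neuronal cells against 4.0% each of other cells. Rgs7 is also among the 13 desensitisation genes, so its call is counted in both lists. Pcp2 was at 9.09% and Gpr179 at 5.19% of neuronal cells, while the channel gene Trpm1 was detected in 0%.

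Between Chat-only and Nos1-only cells, 4 of the 59 partner genes past the filter were called higher (6.78%) and 3 lower (5.08%), on plates 2 and 3. These shares are near those of all genes, 5.8% higher and 3.0% lower, so the calls say nothing particular about the partner genes. The higher ones were Prkcb of the Gq list (log2 ratios 3.67 and 2.45), Kcnj6 (1.05 and 2.01), the scaffold Shank2 (1.03 and 1.73) and Rgs4 (4.90 and 6.82). Rgs4 encodes a protein that speeds the turning off of Gi/o and Gq subunits. The lower ones were the adenylyl cyclase Adcy5 (-1.30 and -1.14), Kcnj5 (-5.74 and -7.33) and Elfn2 (-1.13 and -2.25). Kcnj5 and Kcnj6 both encode G protein-gated potassium channel subunits, and they went in opposite directions. By Nos1 alone, 1 of the 59 was called higher and 2 lower, where 0.698% of all genes were higher and 1.01% lower. Kcnj3 was the higher one, with log2 ratios of 1.07, 1.22 and 1.79 on plates 1, 2 and 3. Rgs4 was lower, with -1.71, -4.23 and -2.48, and so was the adenylyl cyclase Adcy1, with -2.31, -3.45 and -1.33. By Chat, 0 were called higher and 3 lower, namely Adcy1, Adcy5 and the receptor kinase Grk4, where 2.5% of all genes were higher and 0.837% lower. By Slc17a6, 0 were called higher and 1 lower, Adcy5, where 1.53% of all genes were higher and 0.922% lower.

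Reads of overlapping genes could not be separated by strand. Grm7 shares 130 exon bases (2.21% of its exons) with Gm20387 on the opposite strand, which was detected in 9 cells that all had Grm7. Grm2 shares 470 bases (9.60%) with Gm28111, detected in 1 cell, which also had Grm2. Grm6 shares 599 bases (11.0%) with Gm12660, which was detected in 0 cells.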

How the data were processed

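The authors deposited 1 table of log2(RPKM + 1) values per gene and cell, on mm10 per the submitters' processing notes. Its values gave away base 2 and the offset of 1. Aligner, counter and strandedness are not given in the sources. After the log was undone, values times exon length and depth gave whole reads for 100% of 2375655 values above 0, within 0.001 reads. The exon length was that of GENCODE M21 for 31317 genes. The design assumed counts; the recovered reads replaced them, and CPM is reads per 1000000. For 6318 genes without a matching annotated length, the smallest length that made all values whole was used. Whole reads of those genes were thus set by this step.

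A list was carried where at least 50% of its genes reached 10 CPM. Shares have exact Clopper-Pearson 95% intervals. A share of 0 has the limit of 3 cells, with the exact upper limit beside it. Read sums have no interval, since the kit had no molecular identifiers. Ratios of mean CPM used a pseudocount of 1 within plates with 5 cells of each class, which understates low genes. They were computed for genes detected in at least 10 neuronal cells, or for all genes with reads against other cells. Grm7 is the one receptor past the first filter. Genes ranked against Grm7 were detected in at least 20% of neuronal cells, without mitochondrial, ribosomal, Rik and Gm genes. Named genes are the receptors, the 5 highest ranked, in each partner list the 4 detected in most neuronal cells, and those called between Chat-only and Nos1-only cells. The 5 lowest ranked and other list members were named after their values were seen. Members and lists were chosen with earlier results of these data known. No doublet caller was run. The recovery of reads was tested on simulated data. Python 3.11.15, numpy 2.4.6, scipy 1.17.1 and pandas 2.3.3 were used. Promoter sequences are from RefSeq, which matched 5 of the 7 receptors. Alternatives covered the threshold, the neuronal rule, depth, scaling, the pseudocount, other cell types' lists and leaving out each plate.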

Additional observations from a re-analysis of the deposited data

Results flagged for a closer look

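Plates gave opposite signs for 4 comparisons of Grm7, and in each case the difference between plates was not tested. For neuronal cells with against without Slc17a6 the log2 ratio of mean CPM came to -1.26, 1.16 and 0.11 on plates 1, 2 and 3. The share of cells with Grm7, with Chat minus without it, came to 6.67, 13.0 and -3.92 percentage points on plates 1, 2 and 3. With Nos1 minus without it the share differed by -27.7 points on plate 1, -25.6 on plate 2 and 10.5 on plate 3. In Chat-only minus Nos1-only cells it differed by 25.6 points on plate 2 and -16.3 on plate 3.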

How the results depend on the processing

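Of the recomputed main values 94 stayed the same by the rule for their kind, 12 moved, 1 lost its call and 0 called values reversed. Shares were held to their counting interval, ratios to the range over plates, and counts of called genes to a fixed fold. A ratio averaged without a plate cannot leave the range over plates, nor can a called one lose its call. Those ratios are among the values that stayed and were no check. At any read, 46.1% of neuronal cells had Grm7 and 64.9% at least 1 receptor, and at 50 CPM 15.6% and 17.5%. At least 1 receptor was found in 49.4% at 5 CPM and 50.0% at 1 RPKM. At 50 CPM Grm7 differed by 15.6 points between neuronal and other cells and by -29.8 points between cells with and without Nos1, against 29.8 and -14.2 at 10 CPM. Averaged over plates, the log2 ratio of Grm7 was 6.37 with a pseudocount of 0.1 and 2.74 with 5 for neuronal against other cells, against 4.56 with 1. With a pseudocount of 5 it was 2.61 for Chat-only against Nos1-only cells and -2.39 for Nos1, against 3.13 and -2.97. Under upper-quartile scaling the Chat ratio averaged 1.96 and was no longer called. The difference by Chat, which lay within counting error, was 6.88 points at 10 CPM, -2.63 at any read and 16.6 at 50 CPM. Leaving out each plate gave 28.0% to 34.9% for Grm7 in neuronal cells and -27.6 to -5.66 points for Nos1, where the value nearest 0 came without plate 1. Without plate 2, Grm2 and Grm6 were detected in 0 neuronal cells. Thinning to 1000000 reads left out 15 neuronal and 4 other cells and gave Grm7 in 28.2% of cells with Nos1 and 43.5% without it. Classes by a Chat to Nos1 ratio of 4, chosen after seeing the data, gave a log2 ratio of 2.72. Without the filter on low genes 586 genes were called by Chat, against 506 with it. The earlier neuronal gene list was not used here. No paired analysis was possible because the cell numbers that plates share only name cells, and no result comes from a test.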
